A study of Mus musculus with 6 samples.

Results

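The 10 genes described here encode the folding machinery and the stress regulators of the endoplasmic reticulum (ER): Hspa5, Hsp90b1, Calr, Canx, Pdia4, Pdia6, Herpud1, Xbp1, Atf4 and Ddit3. They were taken by symbol from a table of 23725 mouse genes, and all 10 were found. RNA came from regulatory T cells (Tregs), CD4 T cells that restrain immune responses, of C57Bl/6 lymph nodes. The 2 groups were 3 libraries from MOG KO mice, which lack myelin oligodendrocyte glycoprotein (MOG) in the whole animal, and 3 libraries from WT mice. Both groups had been immunised with MOG, a protein of the myelin sheath, so the design asks how Tregs differ where that protein is foreign and where it is a self protein. Each library was made from the RNA of 500 cells. The labels name no age, no immunisation schedule and no sort markers, and do not say whether each replicate number is a separate mouse, so the p-values measure only the spread between these libraries.

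Proteins that enter the ER are folded by chaperones, among them BiP (the product of Hspa5) and GRP94 (Hsp90b1). Glycoproteins are held by the lectins calreticulin (Calr) and calnexin (Canx), and disulfide bonds are made and rearranged by protein disulfide isomerases such as those of Pdia4 and Pdia6. When unfolded protein accumulates, the sensors IRE1, PERK and ATF6 start the unfolded protein response. IRE1 splices the mRNA of the transcription factor XBP1, PERK raises translation of the factor ATF4, and ATF4 can induce CHOP (Ddit3). The product of Herpud1 serves ER-associated degradation, which removes proteins that fail to fold.

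ATF6 and XBP1 are known to act through the ER stress element, spelled CCAAT and CCACG with 9 bases of any kind between them, and through a shorter form, element II, spelled ATTGG and CCACG with 1 base between them. Both were looked for on both strands in the RefSeq promoter windows (GRCm38.p6) that run from 250 bases before to 50 bases after each start site. The longer element lay in 5 of the 10 windows (Hspa5, Hsp90b1, Calr, Canx and Pdia6) and in 0.119% of all 32851 windows. Element II lay in the Herpud1 window alone among the 10, and in 0.0365% of all windows. The windows of Pdia4, Xbp1, Atf4 and Ddit3 held neither string, which says only that these letters are not in those windows. The stretches below are shown because they divide the genes by a shared promoter element. They read 5′ to 3′ on the strand of the gene, with the fixed letters of the element in capitals.
Hspa5, chr2:34772005-34772063, plus strand: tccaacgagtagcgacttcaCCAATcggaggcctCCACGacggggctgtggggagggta
Hsp90b1, chr10:86705618-86705676, minus strand: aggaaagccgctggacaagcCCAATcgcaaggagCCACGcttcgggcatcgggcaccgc
Hsp90b1, chr10:86705513-86705571, minus strand: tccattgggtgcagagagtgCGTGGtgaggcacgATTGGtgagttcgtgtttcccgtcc
Calr, chr8:84847055-84847113, minus strand: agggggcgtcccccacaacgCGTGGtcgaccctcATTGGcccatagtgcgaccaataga
Canx, chr11:50325780-50325838, minus strand: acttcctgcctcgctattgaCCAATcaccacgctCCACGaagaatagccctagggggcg
Pdia6, chr12:17266471-17266529, plus strand: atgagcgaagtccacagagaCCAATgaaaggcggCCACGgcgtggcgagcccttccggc
Herpud1, chr8:94386357-94386407, plus strand: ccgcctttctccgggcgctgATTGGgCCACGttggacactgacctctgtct

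In these stretches the first matched base lay between 212 (Hsp90b1) and 52 (Herpud1) bases before the start site. Hsp90b1 held the element in both directions, and Calr held it in the reverse direction only. Its short parts are common: CCACG lay in 32.8% and CCAAT in 37.4% of all windows, and in 8 and 9 of the 10 windows here. In Canx the spacer between the fixed parts holds a second CCACG.

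**Figure D1:**
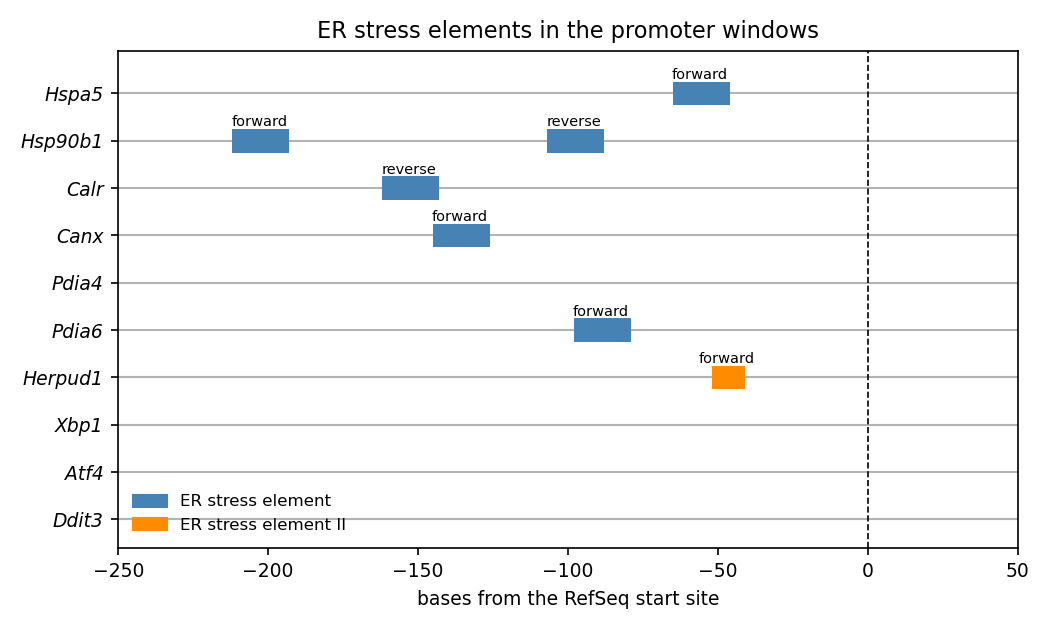
Position of the ER stress element (blue) and element II (orange) in the promoter windows of the 10 genes, in bases from the RefSeq start site (dashed line), with the strand of each match relative to the gene. Hspa5, Calr, Canx and Pdia6 hold 1 longer element each, Hsp90b1 holds 2, Herpud1 holds element II, and the other 4 windows hold neither.

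Values per library are given in RPM, the reads of a gene per 1000000 reads counted, in the order of replicates 1, 2 and 3. Gene counts totalled between 3450623 and 4361315 in MOG KO libraries and between 2717969 and 4472549 in WT libraries, and the RPM of 3 counts, the limit that a count of 0 allows, was 0.671 to 1.1. These limits cover counting error only, since reads without molecular identifiers are not independent molecules. The deleted gene, Mog, had 0 counts in all MOG KO libraries and 1 count in WT (replicate 1), so it does not check the genotype labels. Of 7 Treg and T cell markers, 6 reached 10 RPM in every library, and the exception was Foxp3, at 8.22 RPM in WT replicate 3. CD8 and natural killer cell markers had 0 counts throughout. WT replicate 3 also had the fewest genes at 10 RPM or more, 2701 against 3265 to 4440 in the other 5 libraries. In that library the Treg and T cell markers did not move together. Ikzf2 had 1294 RPM, its highest value, and Il2ra had 708 RPM. Ctla4 (74.3 RPM) and Cd4 (170 RPM) had their lowest values there, as did Foxp3, while Tnfrsf18 and Cd3e had neither their highest nor their lowest. The cause was not tested. In such bulk samples, fewer cells of a type and less RNA per cell cannot be told apart.

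All 10 ER genes passed the filter on low counts, and 0 of them passed the test between genotypes. Among all 4087 genes tested with edgeR's quasi-likelihood test, 0 (0%) passed an adjusted p of 0.05. In data simulated at the spread of these libraries, this test recovered 0% of 4-fold and 10% of 64-fold changes. The simulated fit held 6862 genes, many of them outside the 4087, so this pooled rate is not that of the 10 genes. The counts of 0 therefore do not show equal levels. At an unadjusted p under 0.05 edgeR counted 0 of the 10 genes, against 5.11% of all genes tested. DESeq2 and limma-voom also called 0 of the 10, although DESeq2 called 15.9% of the genes to which it gave an adjusted p. The log2 fold change, MOG KO minus WT, was above 0 for 6 of the 10 genes (52% of all genes tested). Its median was 0.24 over the 10 genes and 0.06 over all genes tested.

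The 10 genes differed among themselves in how evenly they were read. Hspa5 and Herpud1 reached 10 RPM, the level called present here, in all 6 libraries, as did 17.2% of all genes tested. The other 8 were present in 3 to 5 libraries, with up to 731 RPM, and were under 10 RPM in the rest. Of the 60 values, 45 were at 10 RPM or more (22 of 30 in MOG KO and 23 of 30 in WT), 2 lay between 3 and 10 RPM and 13 lay under 3 RPM.

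**Figure D2:**
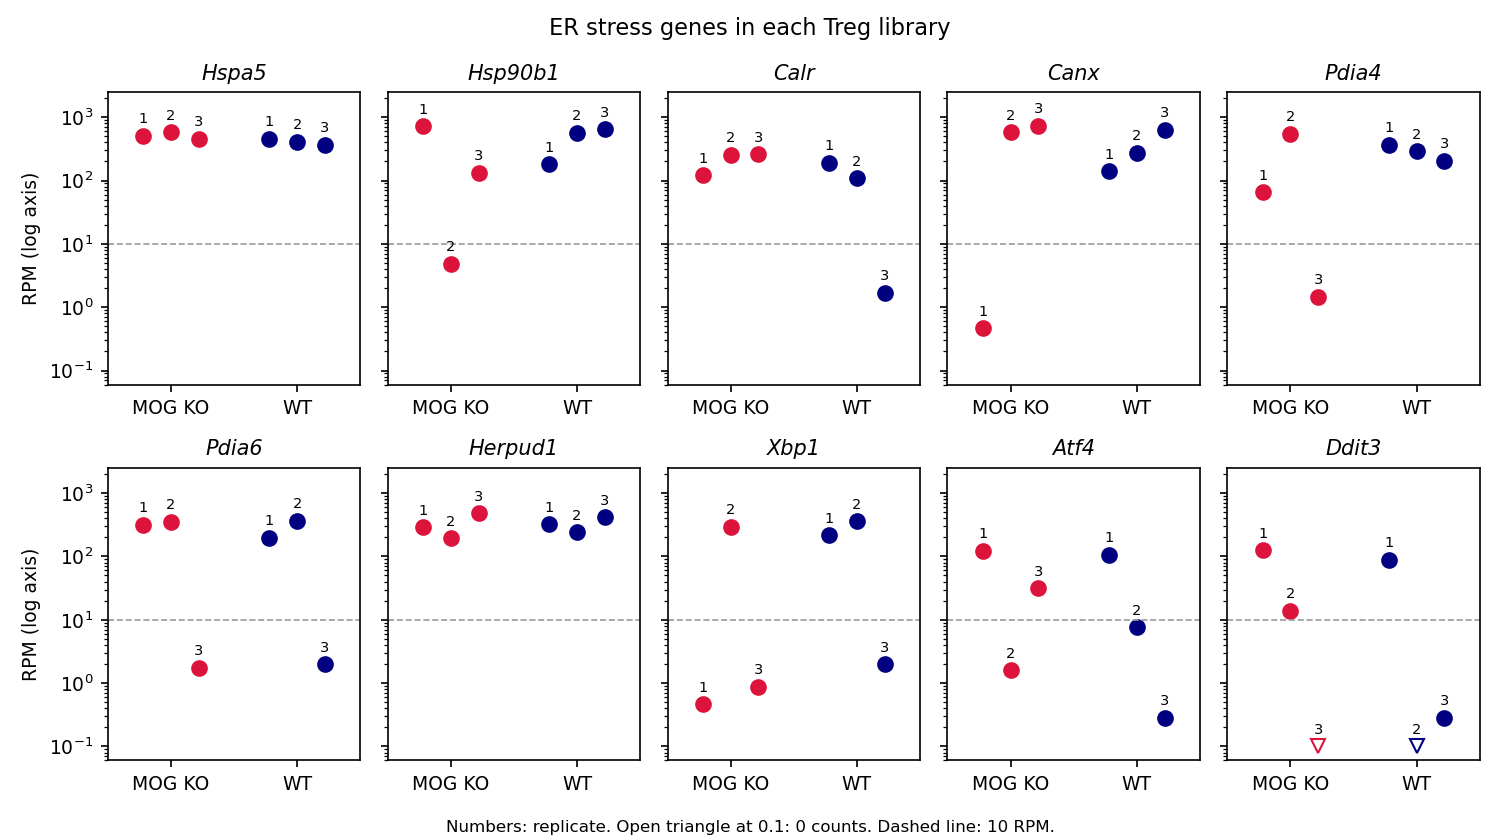
RPM of each of the 10 ER genes (log axis) in the 3 MOG KO libraries (red, left) and the 3 WT libraries (blue, right), with replicate numbers at the points, open triangles for 0 counts and a dashed line at 10 RPM. Hspa5 and Herpud1 stay above the line in all 6 libraries, while each of the other genes drops below it in 1 to 3 libraries.

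Hspa5 (Entrez 14828, chromosome 2, 34772090 to 34776529) encodes BiP, the main ER chaperone and the usual marker of the unfolded protein response. It had 513, 577 and 456 RPM in MOG KO libraries, against 453, 411 and 370 RPM in WT libraries. The groups did not overlap: the lowest MOG KO library, replicate 3, lay just above the highest WT library, replicate 1. Among the 10 genes this held for Hspa5 only, and 10.5% of all genes tested had groups that did not overlap. Means were 515 ± 60.3 RPM in MOG KO and 411 ± 41.8 RPM in WT (SD, n = 3 each). The log2 fold change was 0.27 ± 0.67 (SE), with a 95% interval of -1.28 to 1.82 and an adjusted p of 1 in edgeR. In edgeR the spread of each gene is drawn toward that of other genes, so this SE is not the scatter of Hspa5 alone. The groups also did not overlap after library sizes were scaled with edgeR's TMM factors, with 470 to 584 RPM in MOG KO and 382 to 427 RPM in WT.

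Herpud1 (Entrez 64209, chromosome 8, 94386429 to 94395371) encodes a membrane protein that joins the complex for ER-associated degradation, and is strongly induced by ER stress in many cell types. Its values were 287, 192 and 484 RPM in MOG KO libraries and 322, 243 and 417 RPM in WT libraries. The groups overlapped fully, and the highest and the lowest of the 6 values were both in MOG KO. Means were 321 ± 149 RPM in MOG KO and 328 ± 87.2 RPM in WT (SD, n = 3 each), with a log2 fold change of -0.11 ± 1.11 (SE, 95% interval -2.66 to 2.45). Its sign turned when a single library was left out, to 0.2 without WT replicate 3 and to 0.15 without MOG KO replicate 2.

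Hspa5 and Herpud1 were set apart by their presence in all 6 libraries. A smaller spread than that of the other 8 genes follows from this choice. They are therefore set beside the tested genes that were also present in all 6 libraries. The highest library was 1.56 times the lowest for Hspa5 and 2.52 times the lowest for Herpud1, while the median over the 704 tested genes present in all 6 libraries was 3.75. Of those 704 genes, 6.96% had a smaller ratio than Hspa5 and 30.3% a smaller ratio than Herpud1. The 704 genes were not matched to these 2 for level, so the shares do not set apart evenness from level. The SE of the log2 fold change was 1.53 for Hsp90b1, the next of the 10, and 3.06 for Ddit3, the highest. The median SE was 1.2 over the 704 genes present in all 6 libraries, close to that of Herpud1, and 2.42 over all genes tested.

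**Figure D3:**
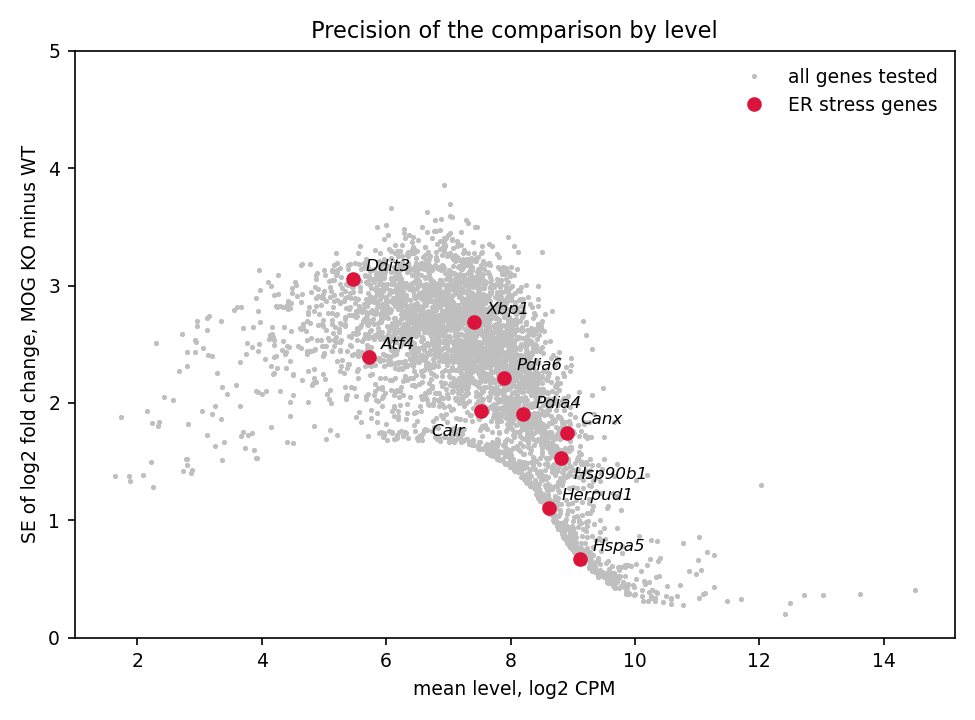
SE of the log2 fold change between MOG KO and WT against mean level (log2 CPM as fitted by edgeR, counts scaled like RPM), for all 4087 genes tested (grey) and the 10 ER genes (red). Hspa5 and Herpud1 sit at the lower edge with SEs of 0.67 and 1.11, and Ddit3 sits highest at 3.06.

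Hsp90b1 (Entrez 22027, chromosome 10, 86690841 to 86705444) encodes GRP94, the ER form of the HSP90 chaperones, which folds Toll-like receptors and integrins. It had 717, 4.82 and 134 RPM in MOG KO libraries and 182, 564 and 640 RPM in WT libraries. MOG KO held both the highest value, in replicate 1, and the only value under 10 RPM, in replicate 2, so the groups overlapped. Hsp90b1 had a log2 fold change of -0.83 ± 1.53 (SE, 95% interval -4.39 to 2.73), which was -2.78 without MOG KO replicate 1 and -0.25 without MOG KO replicate 2.

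The 2 lectin chaperones, which hold glycoproteins through their sugar chains, were low in different libraries. Calr (Entrez 12317, chromosome 8, 84842088 to 84846931), the soluble lectin, had 122, 255 and 261 RPM in MOG KO libraries, against 192, 108 and 1.7 RPM in WT libraries. Only WT replicate 3 was under 10 RPM, and the other 5 libraries overlapped between genotypes. Its log2 fold change of 1.09 ± 1.94 (SE, 95% interval -3.41 to 5.59) was the highest of the 10 genes, and it was 0.52 without WT replicate 3 and 1.96 without WT replicate 1. Canx (Entrez 12330, chromosome 11, 50293957 to 50325673), the membrane-bound lectin, had 0.462, 578 and 731 RPM in MOG KO libraries and 139, 275 and 629 RPM in WT libraries. Here MOG KO replicate 1 stood apart, with 2 counts against 2520 and 2524 in the other MOG KO libraries. Its log2 fold change was 0.24 ± 1.75 (SE, 95% interval -3.83 to 4.32), and it was 1.11 without WT replicate 3, -0.15 without WT replicate 1, -0.01 without MOG KO replicate 2 and -0.35 without MOG KO replicate 3.

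The 2 disulfide isomerases also differed in where they were read. Pdia4 (Entrez 12304, chromosome 6, 47796141 to 47813512), which encodes ERp72, had 65.6, 548 and 1.45 RPM in MOG KO libraries and 366, 290 and 206 RPM in WT libraries. The WT values lay close together, and the MOG KO values lay both above and below them. For Pdia4 the log2 fold change was -0.51 ± 1.9 (SE, 95% interval -4.95 to 3.93), and it was -3.2 without MOG KO replicate 2 and 0.1 without MOG KO replicate 3. Pdia6 (Entrez 71853, chromosome 12, 17266589 to 17284785), which encodes P5, had 317, 351 and 1.74 RPM in MOG KO libraries and 198, 365 and 1.98 RPM in WT libraries. In each genotype replicates 1 and 2 were high and replicate 3 was near 0. For Pdia6 the log2 fold change was 0.24 ± 2.21 (SE, 95% interval -4.91 to 5.4), and it was 1.18 without WT replicate 2, -0.29 without WT replicate 3, -0.02 without MOG KO replicate 1 and -0.26 without MOG KO replicate 2.

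The transcription factors were read in the fewest libraries, 3 of 6 each. Xbp1 (Entrez 22433, chromosome 11, 5520641 to 5525993) encodes the factor that IRE1 activates by splicing, and plasma cells need it for secretion. It had 0.462, 292 and 0.869 RPM in MOG KO libraries, against 216, 358 and 1.98 RPM in WT libraries. It was thus present in MOG KO replicate 2 and in WT replicates 1 and 2, and the groups overlapped. Xbp1 had a log2 fold change of -0.93 ± 2.69 (SE, 95% interval -7.19 to 5.33), and without MOG KO replicate 2 it was -8.06 with an adjusted p of 0.618 in edgeR. Over all 6 fits that each left out 1 library it ranged from -8.06 to -0.13. Counts per gene hold no record of splicing, so the active form of Xbp1 was not measured.

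Markers of B and plasma cells, which would bring Xbp1 mRNA of their own, are given beside these values. Of 9 such markers in the table, 4 had 0 counts in all 6 libraries: Cd79a, Pax5, Sdc1 and Mzb1. The list summed to 0.231, 135 and 2.61 RPM in MOG KO libraries and to 403, 206 and 87.3 RPM in WT libraries. Most of it came from Cd79b in MOG KO replicate 2 (130 RPM) and WT replicate 2 (205 RPM), from Prdm1 in WT replicate 1 (390 RPM) and from Ms4a1 in WT replicate 3 (87.3 RPM). Igj, of the same list, had 28 counts (10.3 RPM) in WT replicate 1 and at most 1 count elsewhere. Prdm1 is also expressed by effector Tregs. The part of these cells in the Xbp1 values was not tested.

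Atf4 (Entrez 11911, chromosome 15, 80255184 to 80257545), whose product drives amino acid and redox genes under stress, had 123, 1.61 and 31.3 RPM in MOG KO libraries and 107, 7.6 and 0.283 RPM in WT libraries. Replicate 1 was the highest library in each genotype, and the groups overlapped. For Atf4 the log2 fold change was 0.39 ± 2.39 (SE, 95% interval -5.18 to 5.95), and it was 3.7 without WT replicate 1, -0.05 without WT replicate 2, -0.13 without WT replicate 3 and -1.18 without MOG KO replicate 1. Ddit3 (Entrez 13198, chromosome 10, 127290793 to 127296291), which encodes the pro-apoptotic factor CHOP, had 125, 13.8 and 0 RPM in MOG KO libraries and 89, 0 and 0.283 RPM in WT libraries. It was highest in replicate 1 of both genotypes, and its counts elsewhere were 60, 0, 0 and 1. The log2 fold change was 0.56 ± 3.06 (SE, 95% interval -6.56 to 7.69), and it was 7.98 without WT replicate 1 and -2.08 without MOG KO replicate 1.

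The adjusted p in edgeR was 1 for each of the 10 genes. Read-sharing limits some of them, since the strand setting of the counting is not given in the sources used here. Ddit3 overlaps exons of Mars on the opposite strand. Mars was at 432 RPM in MOG KO replicate 2, where Ddit3 had 13.8 RPM, and had 0 or 1 count in the other 5 libraries, the 2 of highest Ddit3 included. 1810014B01Rik, which overlaps Hsp90b1 on the opposite strand, had 29 counts in MOG KO replicate 1 and 16 and 4 counts in WT replicates 2 and 3, the 3 libraries of highest Hsp90b1, and 0 in the others. Atp6v1c2, opposite Pdia6, had 1 count over all libraries. Gm4189 also lies opposite Ddit3. On the same strand, Gm15344 and Gm25745 overlap exons of Hsp90b1, and Mir704 overlaps Pdia4, whatever the strand setting. No counts are given here for these 4 genes.

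**Figure D4:**
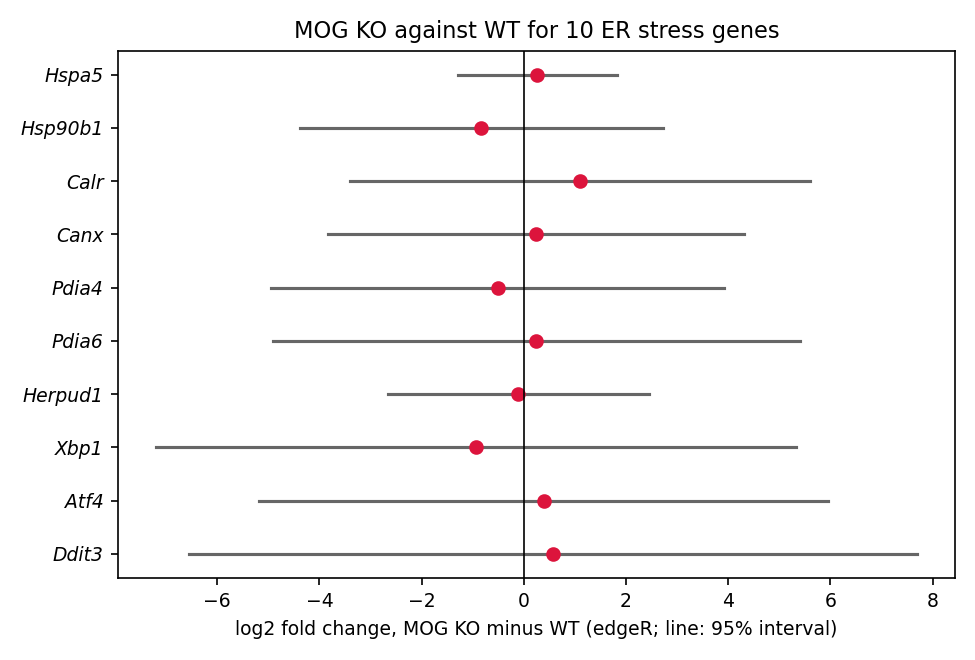
Log2 fold change of the 10 ER genes, MOG KO minus WT (points), with 95% intervals from edgeR (lines). Every interval spans 0, and the narrowest is that of Hspa5, -1.28 to 1.82.

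Added together, the 10 genes took between 2102 and 2813 RPM of each library, and the genes behind the sum changed. Other genes of like level were not summed for comparison. They summed to 2270, 2813 and 2102 RPM in MOG KO libraries and to 2266, 2622 and 2268 RPM in WT libraries. Means were 2395 ± 371 RPM in MOG KO and 2385 ± 205 RPM in WT (SD, n = 3 each), a difference smaller than the spread within either group. The largest single contribution was Hsp90b1 in MOG KO replicate 1 (31.6% of the sum), Canx in MOG KO replicates 2 (20.5%) and 3 (34.8%), Hspa5 in WT replicate 1 (20%), and Hsp90b1 in WT replicates 2 (21.5%) and 3 (28.2%).

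**Figure D5:**
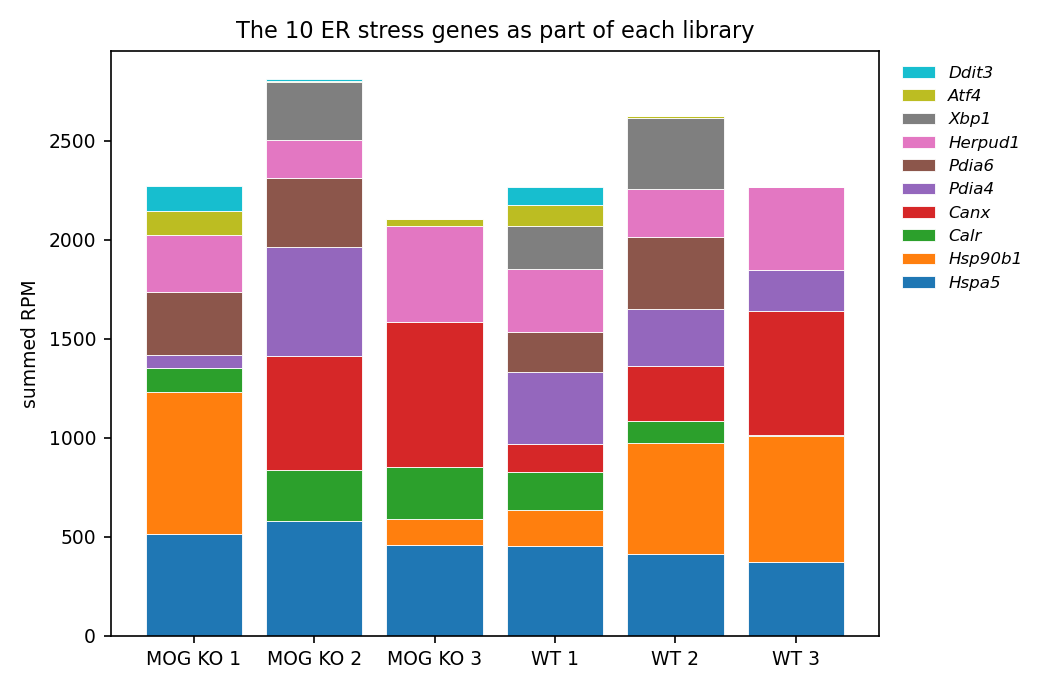
Summed RPM of the 10 ER genes in each library, MOG KO on the left and WT on the right, divided by gene. The sums lie between 2102 and 2813 RPM, while blocks such as Canx in MOG KO replicate 1 or Xbp1 in WT replicate 3 are too thin to see.

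By library, 8, 8 and 6 of the 10 genes were present in MOG KO replicates 1, 2 and 3, and 10, 8 and 5 in WT replicates 1, 2 and 3. Over all genes tested these shares were 66.9%, 64.9% and 62.9% in MOG KO and 70.9%, 75.9% and 52.8% in WT. WT replicate 1 was the only library with all 10 genes at 10 RPM or more. The genes under 10 RPM were Xbp1 and Canx in MOG KO replicate 1, Hsp90b1 and Atf4 in MOG KO replicate 2, and Xbp1, Ddit3, Pdia4 and Pdia6 in MOG KO replicate 3. They were Atf4 and Ddit3 in WT replicate 2, and Xbp1, Atf4, Ddit3, Calr and Pdia6 in WT replicate 3. Of these values, Hsp90b1 in MOG KO replicate 2 (21 counts) and Atf4 in WT replicate 2 (34 counts) were the 2 above 3 RPM.

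Levels of different genes were compared as RPM per kilobase of merged exons (GENCODE M21 basic, GRCm38). Ddit3 has 2 gene models there, and the one of longer span gave its length. By the median over 6 libraries the order was Herpud1 (156), Hsp90b1 (132), Hspa5 (121), Pdia6 (118), Pdia4 (103), Canx (99.6), Calr (71.8), Xbp1 (45.7), Atf4 (11.3) and Ddit3 (7.89). The range over libraries of each gene overlapped that of the next in this order, so no neighbours were separated. Hspa5 spanned 98.5 to 154 RPM per kilobase and Herpud1 98.4 to 248, and no other gene stayed above 2 in all libraries. With coding length in place of exon length Canx moved to the second place and Hsp90b1 to the fifth.

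Set beside the promoter sequences, the 6 genes with an element were at 10 RPM or more in 15 of 18 MOG KO and 16 of 18 WT values. For the 4 genes without an element these were 7 of 12 values in MOG KO and 7 of 12 in WT. Median levels spanned 71.8 to 156 RPM per kilobase with an element and 7.89 to 103 without. Fold changes lay on both sides of 0 in both sets, from -0.83 (Hsp90b1) to 1.09 (Calr) with an element and from -0.93 (Xbp1) to 0.56 (Ddit3) without. Over all genes tested, the share at 10 RPM or more ran from 52.8% (WT replicate 3) to 75.9% (WT replicate 2). Outside the 10 genes, 33 genes in the table held an element. Of these, 21 were under 10 RPM in all 6 libraries, 14 of them with 0 counts. This division of the 10 genes was made after the values were seen, and no test was made of it.

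A further 7 lists cover the rest of the pathway, with 96 genes in the table and 52 of them tested. None passed edgeR's test at an adjusted p of 0.05 (0 of 52), 28 had log2 fold changes above 0 and 24 below, and the median was 0.06, as over all genes. At an unadjusted p under 0.05 there were 6 of the 52 genes (11.5%), beside 5.11% of all genes tested. DESeq2 called 7 of the 54 pathway genes to which it gave an adjusted p (13%, beside 15.9% of all genes). These were Manf, higher in MOG KO, and Atf6b, P4hb, Ganab, Man1b1, Nploc4 and Srp54a, lower in MOG KO, with adjusted p from 0.00192 to 0.00616 in DESeq2. Over all genes DESeq2 called 271 higher and 473 lower.

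Of the 6 sensors and sensor proteases, 0 passed the filter on low counts, and each was read at 10 RPM or more in at most 2 libraries. Eif2ak3, which encodes PERK, and Ern1, which encodes IRE1, stayed under 1 RPM in every library, and Mbtps2 had 0 counts. Mbtps1, a protease that cleaves ATF6, had 133 RPM in WT replicate 2 and at most 1.84 RPM elsewhere. These 4 were named after their values were seen. Atf6 had 0, 467 and 0.29 RPM in MOG KO libraries and 3.31, 0 and 0.567 RPM in WT libraries. Atf6b, which encodes a relative of ATF6, had 0.231, 0.688 and 0 RPM in MOG KO libraries, against 0, 147 and 504 RPM in WT libraries.

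Among 20 genes of the ATF4 branch and the integrated stress response, 6 were tested, 4 above and 2 below 0 (median 0.84). In this list 9 of the 20 genes stayed under 10 RPM in every library. The most abundant were Phgdh, the first enzyme of serine synthesis, and Slc3a2, the heavy chain of amino acid transporters. Phgdh had 320, 194 and 334 RPM in MOG KO libraries and 143, 37.6 and 0 RPM in WT libraries (log2 fold change 2.22 ± 2.32, SE), without overlap. Slc3a2 had 297, 344 and 92.4 RPM in MOG KO libraries and 11.4, 186 and 0.283 RPM in WT libraries (1.9 ± 2.25, SE).

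Among 13 further ER chaperones and co-chaperones, 6 were tested, 5 above and 1 below 0 (median 0.75). Dnajb11, a co-chaperone of BiP, had 312, 448 and 399 RPM in MOG KO libraries and 354, 356 and 0.567 RPM in WT libraries. Dnajc3, another co-chaperone, had 504, 23.6 and 38 RPM in MOG KO libraries and 449, 209 and 3.4 RPM in WT libraries. Both overlapped between genotypes. Among 11 genes of disulfide formation, 5 were tested, 1 above and 4 below 0 (median -0.15). Pdia3, the isomerase that works with Calr and Canx, was even, with 494, 392 and 607 RPM in MOG KO libraries and 657, 507 and 436 RPM in WT libraries (log2 fold change -0.15 ± 0.6, SE). Txndc5, another isomerase, had 0.231, 479 and 1.45 RPM in MOG KO libraries and 230, 296 and 0.567 RPM in WT libraries.

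Among 9 genes of the glycoprotein folding cycle, which share Pdia3 with the previous list, 6 were tested, 1 above and 5 below 0 (median -5.04). Ganab, a glucosidase that trims the sugars read by Calr and Canx, had 1.62, 0.459 and 1.45 RPM in MOG KO libraries, against 3.31, 524 and 922 RPM in WT libraries (log2 fold change -8.77 ± 2.57, SE, adjusted p = 0.602 in edgeR and 0.00236 in DESeq2). Among 17 genes of ER-associated degradation, 12 were tested, 10 above and 2 below 0 (median 0.31). Vcp, the ATPase that extracts proteins from the membrane, had 982, 592 and 900 RPM in MOG KO libraries and 504, 1091 and 660 RPM in WT libraries (0.08 ± 0.44, SE). Edem1, a lectin that passes misfolded glycoproteins to degradation, was present in every library. It had 423, 308 and 590 RPM in MOG KO libraries, against 904, 1007 and 1363 RPM in WT libraries, without overlap (log2 fold change -1.39 ± 0.45, SE, 95% interval -2.44 to -0.33, unadjusted p = 0.0167, adjusted p = 0.65 in edgeR).

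Among 21 genes of the translocon and of signal recognition, 18 were tested, 7 above and 11 below 0 (median -0.28). Tram1, a translocon partner, had 512, 559 and 523 RPM in MOG KO libraries and 424, 38.5 and 358 RPM in WT libraries (0.87 ± 1.05, SE), and Ssr1, a subunit of the translocon-associated complex, had 8.32, 476 and 474 RPM in MOG KO libraries and 155, 648 and 537 RPM in WT libraries. Over the 7 lists, groups did not overlap for 9 of 52 tested genes (17.3%, beside 10.5% of all genes tested), 3 with MOG KO above and 6 with MOG KO below WT. Beside Phgdh, Tram1, Ganab and Edem1 these were Manf, P4hb, Man1b1, Srp54a and Slc7a11, named here after their values were seen. Manf, a secreted stress-induced ER protein, had 81.1, 155 and 201 RPM in MOG KO libraries, against 1.47, 0.447 and 0.283 RPM in WT libraries (log2 fold change 7.57 ± 2.35, SE, adjusted p = 0.602 in edgeR and 0.00418 in DESeq2). P4hb, the classical disulfide isomerase, had 1.62, 2.29 and 1.16 RPM in MOG KO libraries, against 234, 260 and 498 RPM in WT libraries (-7.68 ± 2.12, SE, adjusted p = 0.602 in edgeR and 0.00241 in DESeq2).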

How the data were processed

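The authors deposited raw exon counts for each gene, 1 column a library, and RPM values, which are those counts divided by the library total and multiplied by 1000000. Per the labels' protocols, cDNA from 500 cells was amplified by 15 PCR cycles and read as single reads of 100 bases. STAR 2.3.1, R 3.2.2 and build mm10 stand in the submitters' processing notes. How reads were assigned to genes, with which gene models and strand setting, is not given in the sources used here. The kit carries no molecular identifiers.

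The test was edgeR 4.0.16 under R 4.3.3 (filterByExpr, TMM, robust quasi-likelihood fit, genotype alone, Benjamini-Hochberg adjustment over the 4087 genes tested). The SE is the absolute log2 fold change over the square root of F, and is approximate. It rests on a spread that edgeR estimates partly from other genes, not on the values of 1 gene alone. 1 row without a symbol (0.00139% of counts) was left out. Coordinates and promoter windows are RefSeq GRCm38.p6, matched by Entrez identifier for all 10 genes. DESeq2 1.42.0, limma-voom (limma 3.58.1), other filters, size factors, a replicate block and leaving out each library were alternatives. The fitting step was tested on simulated data. At a low spread it recovered 100% of 4-fold and of 64-fold changes. At the spread estimated from these libraries it recovered 0% of 4-fold and 10% of 64-fold changes. A count of 0 therefore does not show equal levels.

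The 10 genes and the lists were chosen with earlier results of these data known. Named beside them are Mog, Foxp3 and, of each pathway list, the 2 genes of highest mean RPM where none passed. Other genes of the lists were named after their values were seen. Il2ra and Ctla4 stand among the Treg and T cell markers. Element II, the list of genes with an element, the overlap after TMM scaling and the division of the 10 genes by promoter element were added after the data were seen. A planned reading of the C-terminal signals of the proteins was not made, since no protein sequences were used here.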

Additional observations from a re-analysis of the deposited data

How the results depend on the processing

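The 10 ER genes had 0 calls in edgeR under every alternative run, and the adjusted p of single genes ranged from 0.618 (Xbp1 without MOG KO replicate 2) to 1. Over all genes DESeq2 called 744 and edgeR 0, and over the pathway lists DESeq2 called 7 and edgeR 0; without the filter on low counts edgeR also tested all 7 and called 0 of them, at adjusted p from 0.449 to 0.462. The cause of the difference between the tools was not tested. Signs were constant for Hspa5, Hsp90b1, Xbp1 and Calr, but sizes were not: leaving out 1 library gave 0.17 to 0.36, -2.78 to -0.25, -8.06 to -0.13 and 0.52 to 1.96 in that order, and limma-voom gave 0.31, -2.61, -3.58 and 2.39. Canx was -0.069 in DESeq2, -2.61 in limma-voom and -1.01 with the replicate block. Leaving out 1 library gave the other sign in 13 of 60 fits, with ranges of -1.18 to 3.7 for Atf4, -2.08 to 7.98 for Ddit3, -0.55 to 0.204 for Herpud1, -0.35 to 1.11 for Canx, -3.2 to 0.097 for Pdia4 and -0.29 to 1.18 for Pdia6. Replicate numbers are shared between genotypes, but same-numbered libraries did not deviate together (correlations of -0.0236, -0.00343 and -0.0176), and the replicate block called 0 genes overall. The difference of the summed RPM was 10 and ranged from -199 to 156 when 1 library was left out (-3.99 with TMM-scaled totals). Present values numbered 45 at 10 RPM, 46 at 5 RPM and 44 at 20 RPM. Median levels per coding kilobase are higher for every gene, because coding length is part of exon length. Each rise is set by the 2 lengths, so only the order of genes could change. The rise was larger than the SD between replicates for Hspa5 (to 231), Xbp1 (129), Herpud1 (260), Calr (126) and Canx (241). Values of 1 or 2 counts lie under the limit that a count of 0 allows.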

Other observations

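An ER stress element of either kind lay in the promoter windows of 49 genes, 39 of them in the table. Leaving out the 6 described in the report, 33 remained, of which 7 were tested and 0 passed edgeR's test (0 at an unadjusted p under 0.05, and 0 in DESeq2). Their log2 fold changes were above 0 for 5 and below 0 for 2, with a median of 0.12. These genes include further parts of the ER machinery, among them Dnajb11, Dnajc3, Syvn1, Creld2, Derl3 and Ero1lb, named here after their values were seen. Creld2, a stress-induced ER protein, was read in 1 library, WT replicate 2 (210 RPM), and stayed under 1 RPM elsewhere, and Derl3, a channel component of ER-associated degradation, had 1 count in all. The 2 most abundant were Rbm39 and Nucb1. Rbm39, a splicing factor, had 608, 414 and 830 RPM in MOG KO libraries and 492, 368 and 48.2 RPM in WT libraries (log2 fold change 1.02 ± 0.94, SE). Nucb1, a calcium-binding protein of the Golgi, had 403, 575 and 414 RPM in MOG KO libraries and 514, 224 and 478 RPM in WT libraries (0.12 ± 0.78, SE).

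Markers of other cell types not yet given held uneven numbers of reads. 8 dendritic cell and macrophage markers summed to 6.01, 6.65 and 13 RPM in MOG KO libraries and to 15.8, 5.59 and 11.3 RPM in WT libraries, and none reached 10 RPM in any library. 4 erythroid markers summed to 20.1, 30 and 66.1 RPM in MOG KO libraries and to 102, 151 and 68.9 RPM in WT libraries. These erythroid sums were lower in every MOG KO library than in any WT library, though narrowly (66.1 against 68.9 RPM), and were not tested. Of the 3 erythroid markers tested singly, 0 had groups that did not overlap, beside 10.5% of all genes tested. Hba-a2 reached 10 RPM in all 6 libraries. 6 stromal and endothelial markers summed to 461, 31.2 and 47.5 RPM in MOG KO libraries and to 95.3, 24.6 and 1.98 RPM in WT libraries. Most of it was Pecam1, which T cells also express. Col1a1 and Col1a2 had 12 and 14 counts in MOG KO replicate 2, 6 and 10 counts in WT replicate 1, and 0 elsewhere.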
